A study of Glycine soja with 4 samples.

Results

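The predicted candidates of 22 nt or shorter were the sequences that the deposited small RNA lists name with PC (predicted candidate), not as a known miRNA, and whose listed sequence has at most 22 nt. They were chosen by name and length alone, and each distinct sequence was counted once. There were 39 such names for 35 distinct sequences, out of 80 PC names (74 sequences) and 217 distinct sequences in all. The roots sampled were those of the wild soybean (*Glycine soja*) genotype BW69, which the study selected for Al tolerance, and the seedlings were kept at pH 4.5 in nutrient solution with 50 µmol/L AlCl3 (Al-treated) or 0 µmol/L AlCl3 (Al-free). The 10 cm of root behind the apex was harvested at several times between 1 and 96 h, and roots of several repeats and all harvests of a treatment were pooled into 1 small RNA library and 1 degradome library. There were thus no replicates, a difference between early and late harvests could not be seen, and every interval and test below compares the reads of 2 libraries, covers counting error only, and says nothing of the spread between plants. The small RNA lists hold no marker genes, so the tissue label was not checked.

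Plant miRNAs are cut from hairpin precursors by DICER-LIKE1, mostly as 21-nt duplexes of a 5p and a 3p strand, of which 1 strand is usually kept. Products of 22 nt can trigger the making of secondary small RNAs from their targets, whereas small RNAs of 24 nt are mostly made by another Dicer-like enzyme and direct DNA methylation. The first base matters for sorting: in *Arabidopsis*, AGO1 mostly loads small RNAs that begin with U (written T here, as in the lists), AGO2 and AGO4 prefer A, and AGO5 prefers C. A predicted candidate is a sequence whose genomic surroundings can fold into a hairpin, and a listed partner strand is one of the signs that tell a miRNA from a chance hairpin.

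The candidates that were at least 2-fold higher or lower in the Al-treated library are shown first, because the comparison of the libraries turns on them. The capitals mark the seed (bases 2 to 8 from the 5′ end).
PC-13-3p: tTAGATTCacgcacaaacttg
PC-19-5p: tCACGCCTaatcactgacgca
PC-25-3p: cTACATAAggcacgagatcatc
PC-39-5p: tAGATTTTaaagttgcggatca
PC-6a/b-3p: gCTGGATGtctttgaaggaat
PC-5-5p: gCATATTAgcaatgatgatctg
PC-17-3p: tGACCGGAactatttgactgtt
PC-3-3p: cCTCATTCcaaacatcatctaa
PC-46-5p: cTATATGAtgaagata
PC-63-3p: gTAGTGGAtgcctagaggtcc

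No seed was shared within the 35 candidates, which carried 35 distinct seeds. Only 3 candidates had the seed of another listed sequence. PC-2-5p shared its seed with PN-miR169c, PC-3-3p with gso-miR1507a and gso-miR1507b, and PC-3-5p with gso-mir1507a-p5. The candidates thus formed no seed family of their own. Seeds were compared at the same positions only, which misses candidates alike at a shift, given below.

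By length, 18 of the 35 candidates had 21 nt and 11 had 22 nt, and the lengths of 20, 19 and 16 nt had 2 candidates each. The 21-nt candidates held 55.5% of the reads of the group in the Al-treated library and 36.1% in the Al-free library, the 22-nt candidates 26.5% and 34.0%. The 2 candidates of 19 nt alone held 13.6% and 21.5%. Known miRNAs other than p3/p5 strands also reached their largest number at 21 nt, with 40 of 92 sequences, and 29 of them were 24 nt long.

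T was the commonest first base, with 14 of the 35 candidates, followed by G with 10 (28.6%), C with 9 (25.7%) and A with 2 (5.71%). The candidates of 23 to 25 nt differed in this, since 16 of 39 (41.0%) began with A and 9 (23.1%) with T. Of the 92 known miRNAs 50 (54.3%) began with T and 26 (28.3%) with A. Both candidates with a first A, PC-3-5p and PC-49-3p, were 21 nt long, and of the 11 candidates of 22 nt 5 began with C. These shares describe the lists and were not tested. Weighted by reads, T held 38.2% in the Al-treated library and 38.9% in the Al-free library, close to its share of sequences, whereas the known miRNAs had 97.7% and 95.9% of their reads on sequences with a first T. In the reads of the candidates G held 39.1% in the Al-treated library against 24.9% in the Al-free library, and C held 21.1% against 34.8%. The most abundant sequence with G was PC-6a/b-3p and the most abundant with C was PC-3-3p, so that these shares moved with 1 sequence each.

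The label of a predicted candidate did not hold for all members. The published list of known miRNAs holds 18 of the 35 sequences under a PN name, against 1 of the 39 candidates of 23 to 25 nt. In the study PN marks a potentially new miRNA. Among the 18, PC-13-3p had the sequence of PN-miR403a and b, of a family that in *Arabidopsis* regulates AGO2. PC-2-5p and PC-2-3p had those of PN-miR169j-5p and PN-miR169j-3p, of the family that regulates the NF-YA (CCAAT-binding) transcription factors. PC-3-3p and PC-3-5p were PN-miR1507c and PN-miR1507c*, and miR1507 is known in legumes as a 22-nt regulator of NB-LRR disease resistance genes. PC-6a/b-3p and PC-6a/b-5p were PN-miR862a and b with their p5 strand. PC-14-5p, PC-23-5p and PC-55-3p were strands opposite to well-known mature miRNAs, namely PN-miR166i-5p, PN-miR482c-5p and the p3 strand of PN-miR156h and k. PC-68a/b-5p carried the sequence of PN-miR172h-5p, i and j. The others were PC-16-5p (PN-miR5036-p5), PC-18-3p (PN-miR5035-p3), PC-19-5p (PN-miR4387e-p5), PC-49-3p (PN-miR1513b), PC-62-3p (PN-miR5042-p3), PC-63-3p (PN-miR5044) and PC-66a/b-5p (PN-miR5037). The 17 sequences under a PC name alone included all 6 candidates shorter than 21 nt. They are called unnamed candidates below.

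The candidates near a listed relative differed from it at few bases. The pairs below set candidates beside such a relative, with the seed in capitals. The PN names given above rest on the published list and not on these pairs.
PC-68a/b-5p: gCAGCAGCatcaagattcaca
PN-miR172b*: gCAGCACCatcaagattcaca
PC-2-5p: tAGCCAAGaatgacttgccgg
PN-miR169c: aAGCCAAGgatgacttgccga
PC-3-3p: cCTCATTCcaaacatcatctaa
gso-miR1507a/gso-miR1507b: tCTCATTCcatacatcgtctga
PC-68a/b-5p differed from PN-miR172b* by C7G, with the base of the known sequence first and positions counted from its 5′ end. PC-2-5p differed from PN-miR169c by A1T, G9A and A21G, all outside the seed. PC-3-3p differed from gso-miR1507a and gso-miR1507b by T1C, T11A, G17A and G21A, also outside the seed. Within the group, PC-6a/b-5p and PC-66a/b-5p matched over 19 nt with 2 mismatches when shifted by 2 bases, and PC-6a/b-5p and PC-16-5p matched over 18 nt with 3 mismatches when shifted by 3. None of the 17 unnamed candidates matched a known miRNA of the lists with at most 2 mismatches over 16 nt or more.

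Every candidate was read in both libraries. Summed over the 35 sequences, there were 1583 reads in the Al-treated library and 1456 in the Al-free library, which were 3.56% of the 44493 listed reads and 4.79% of the 30411. The difference between these shares came mostly from gso-miR2218, the most abundant listed sequence, as the log2 ratios of the group below show. Reads of a candidate ranged from 6 to 355 in the Al-treated library, with a median of 20, and from 1 to 377 in the Al-free library, with a median of 14. The candidates of 23 to 25 nt had medians of 11 and 10 reads, and the known miRNAs of 6.5 and 4, although single known miRNAs were far more abundant. With at least 5 reads asked of each library, 33 of the 35 candidates were still found in both. The 2 others, PC-18-3p and PC-68a/b-5p, had 14 and 12 reads in the Al-treated library against 4 and 1 in the Al-free library.

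The order of abundance differed between the libraries. In the Al-treated library PC-6a/b-3p was first with 355 reads, before PC-60-3p with 208, PC-3-3p with 194, PC-48-3p with 137 and PC-14-5p with 65. In the Al-free library PC-3-3p led with 377 reads, before PC-60-3p with 298, PC-48-3p with 135, PC-6a/b-3p with 113 and PC-23-5p with 59. The unnamed candidates thus included sequences as abundant as the named ones, above all PC-60-3p and PC-48-3p. PC-48-3p (tTAGCTTCtttcacctttccc) was also among the steadiest with scaling by clean reads, with a log2 ratio of -0.03 and an interval from -0.38 to 0.32. Scaled by the summed listed reads, its log2 ratio was -0.53.

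**Figure D1:**
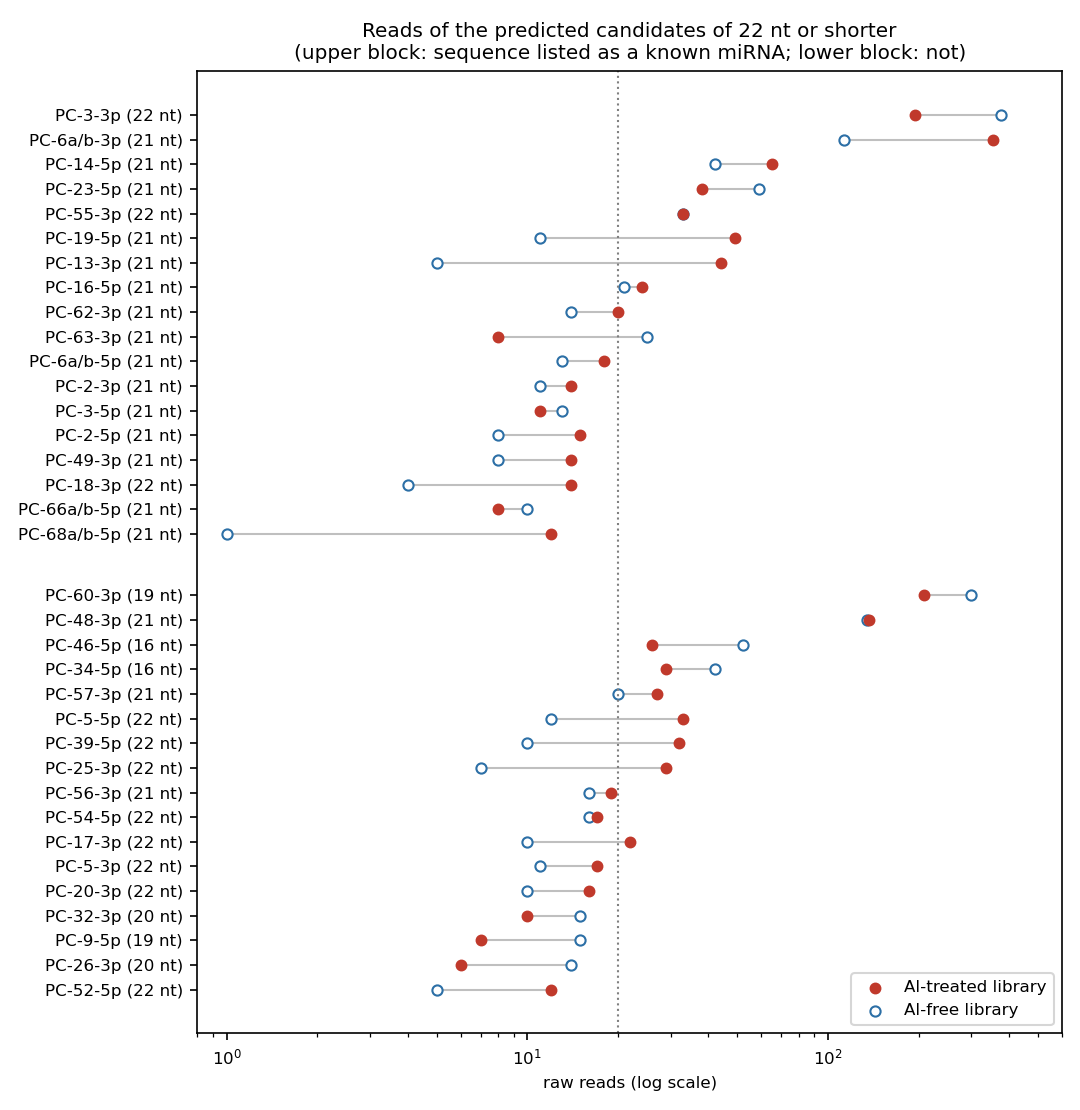
Raw reads of each of the 35 candidates (log axis) in the Al-treated library (filled red) and the Al-free library (open blue), ordered by reads within 2 blocks, sequences that also carry a PN name above and unnamed candidates below. The dotted line marks 20 reads, and 16 candidates lie under it in both libraries.

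The main question of the study was which miRNAs differ under Al. For each sequence the log2 ratio of reads, Al-treated over Al-free, was scaled by the clean reads of the libraries, given with its exact 95% interval, and tested against the 50.9% of reads that this scaling expects in the Al-treated library (exact two-sided binomial test, Benjamini-Hochberg adjustment over the 75 listed sequences that reached 20 reads in one of the libraries). The median log2 ratio of the 75 sequences was 0.25, and other scalings shifted all ratios by between -0.50 and 0.05. Of the 35 candidates 19 reached 20 reads, while for the 16 others a difference was mostly not detectable at this depth. The summed reads of the group differed by a log2 ratio of 0.07 (interval from -0.03 to 0.17), which did not exceed counting error. For the other 182 listed sequences the log2 ratio was 0.52 (interval from 0.50 to 0.54). Most of this contrast came from gso-miR2218, the most abundant of them. Scaled by the summed listed reads, the group had a log2 ratio of -0.43. With gso-miR2218 left out of that sum, it was -0.016.

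Among the 19 candidates with enough reads, 7 had a log2 ratio of at least 1, where the same held for 29.3% of all 75 sequences, and 3 had a log2 ratio of at most -1, against 16.0% of all 75. By the exact test 6 candidates had an adjusted p under 0.05 with more reads in the Al-treated library (38.7% of all 75) and 5 with fewer (29.3% of all 75). The median log2 ratio of the 19 candidates was 0.38, against 0.25 for all 75. Read against these background shares, the counts of 7 and 3 by fold and of 6 and 5 by test showed nothing particular to the group. A read minimum in either library lets a sequence in through the library where it is high: 6 of the 7 higher candidates stayed under 20 in the Al-free library, and 1 of the 3 lower ones did so with Al. With 20 reads asked of both libraries, 11 candidates were tested, and 1 was higher and 2 were lower by fold. The share over all listed sequences was not taken at that minimum, so these counts cannot be set against a background.

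The candidates that rose included both named and unnamed sequences. PC-13-3p, the miR403 sequence, had 44 reads in the Al-treated library against 5 in the Al-free one. Its log2 ratio was 3.09, between 1.76 and 4.78 (adjusted exact binomial p = 3.53e-08). PC-19-5p, the p5 strand of PN-miR4387e, had 49 against 11 reads and a log2 ratio of 2.10, between 1.14 and 3.20 (adjusted exact binomial p = 2.78e-06). PC-6a/b-3p, the miR862 sequence and the deepest of them, had 355 against 113 reads and a log2 ratio of 1.60, between 1.29 and 1.92 (adjusted exact binomial p = 1.60e-27). For these 3 the whole interval lay above the 2-fold line at this scaling.

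The other candidates past the 2-fold line were unnamed 22-nt sequences with lower interval bounds under it. PC-25-3p had 29 reads in the Al-treated library against 7 in the Al-free one, and its log2 ratio of 2.00 lay between 0.78 and 3.44 (adjusted exact binomial p = 0.000699). PC-39-5p had 32 against 10 reads, and its log2 ratio of 1.63 lay between 0.57 and 2.82 (adjusted exact binomial p = 0.00190). PC-5-5p had 33 against 12 reads, and its log2 ratio of 1.41 lay between 0.42 and 2.50 (adjusted exact binomial p = 0.00438). The ratio became 0.91 on scaling by the summed listed reads, and its adjusted exact p ranged from 0.00438 to 0.0893 over the alternatives. PC-17-3p had 22 and 10 reads and a log2 ratio of 1.09, but its interval from -0.05 to 2.33 included 0 (adjusted exact p = 0.0699), and it passed the 2-fold line in 3 of 7 scalings.

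The 3 candidates past the threshold in the other direction were PC-63-3p, PC-46-5p and PC-3-3p. PC-63-3p, the miR5044 sequence, had 8 reads in the Al-treated library against 25 in the Al-free one and a log2 ratio of -1.69, between -3.05 and -0.50 (adjusted exact binomial p = 0.00438). PC-46-5p, a 16-nt sequence, had 26 against 52 reads and a log2 ratio of -1.05, between -1.79 and -0.35 (adjusted exact binomial p = 0.00365). PC-3-3p, the miR1507c sequence, had 194 against 377 reads and a log2 ratio of -1.01, between -1.27 and -0.76 (adjusted exact binomial p = 2.64e-15). PC-3-3p fell beyond counting error, but without scaling its ratio was -0.96, and that of PC-46-5p was -1. The intervals of all 3 candidates crossed the 2-fold line, so their place past it was not settled.

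A smaller fall was seen for PC-60-3p, with 208 reads in the Al-treated library and 298 in the Al-free library and a log2 ratio of -0.57, between -0.83 and -0.31 (adjusted exact p = 2.91e-05). PC-23-5p, the strand opposite to miR482c, had 38 and 59 reads and a log2 ratio of -0.69 (adjusted exact p = 0.0376), a call lost without scaling and at each looser read minimum, and the adjusted p ranged from 0.000160 to 0.0937 over the alternatives. The 7 remaining tested candidates, not counting PC-17-3p, had log2 ratios between -0.59 for PC-34-5p and 0.58 for PC-14-5p and adjusted p above 0.05. PC-14-5p had 65 and 42 reads with an interval from -0.0025 to 1.17, and PC-34-5p had 29 and 42 reads with an interval from -1.32 to 0.13.

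**Figure D2:**
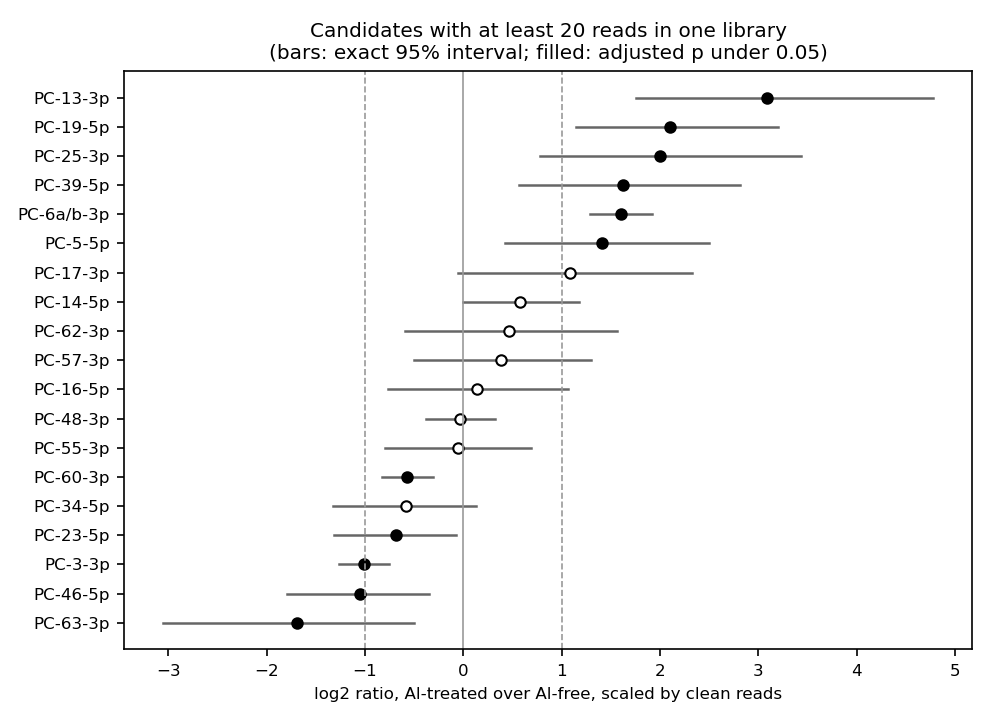
Log2 ratio, Al-treated over Al-free, of the 19 candidates with at least 20 reads in one library, scaled by clean reads. Points are estimates, filled for an adjusted p under 0.05, lines are exact 95% intervals, and dashed lines mark log2 ratios of 1 and -1. PC-3-3p and PC-46-5p sit on the lower dashed line, and only PC-13-3p, PC-19-5p and PC-6a/b-3p lie wholly above the upper one at this scaling.

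Below the minimum of 20 reads, PC-68a/b-5p stood apart. It had 12 reads in the Al-treated library against 1 in the Al-free one, and the interval of its log2 ratio of 3.53 reached from 0.78 to 8.95. With a minimum of 10 reads, when 130 sequences were tested, it was the only candidate added to the calls (adjusted exact p = 0.00904), although it met that minimum only through the Al-treated library, where it was high. PC-18-3p, with 14 and 4 reads, had a log2 ratio of 1.76 with an interval from 0.09 to 3.82.

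Within the group the direction of the ratios went with length, a pattern that was noticed after the values were seen. All 6 candidates of 16 to 20 nt had fewer reads per clean read in the Al-treated library, under each of the 7 scalings tried. A scaling shifts all ratios alike, so the 7 are not separate tests of the pattern. Their summed reads were 286 in the Al-treated library against 436 in the Al-free one, and the log2 ratio was -0.66, between -0.88 and -0.44. PC-60-3p supplied most of these reads, and without it the sums were 78 and 138 and the log2 ratio -0.87 (interval from -1.29 to -0.46). Besides PC-60-3p, PC-46-5p and PC-34-5p, this class held PC-9-5p with 7 and 15 reads, PC-26-3p with 6 and 14, and PC-32-3p with 10 and 15. Taken singly, only PC-60-3p and PC-46-5p had intervals that excluded 0. The intervals were -2.69 to 0.23 for PC-9-5p, -2.94 to 0.20 for PC-26-3p, -1.95 to 0.61 for PC-32-3p and -1.32 to 0.13 for PC-34-5p.

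Of the 29 candidates of 21 or 22 nt, 22 had a ratio above 0 with scaling by clean reads, 23 without scaling and 15 with scaling by the summed listed reads. Over all 217 listed sequences, 126 were above 0 with scaling by clean reads. The summed reads of these 29 candidates had a log2 ratio of 0.30, which was -0.0013 with the median of ratios and -0.20 with the summed listed reads, so that its direction depended on the scaling. The 18 candidates of 21 nt had 878 reads in the Al-treated library against 525 in the Al-free one. The log2 ratio was 0.69, between 0.53 and 0.85, and was 0.29 (interval from 0.10 to 0.48) without PC-6a/b-3p. The 11 candidates of 22 nt had 419 against 495 reads and a log2 ratio of -0.29, but most of these reads were those of PC-3-3p, and the other 10 had 225 against 118 reads and a log2 ratio of 0.88, between 0.55 and 1.21. Known miRNAs of 20 nt or less were also lower in sum. These 9 sequences had 743 against 1195 reads and a log2 ratio of -0.74, between -0.87 and -0.60, with 7 of the 9 below 0. However, 2 of them had 18 nt and 7 had 20 nt, so only the length of 20 nt was shared with the candidates. The 2 candidates of 20 nt had 16 against 29 reads, and no known miRNA of 16 or 19 nt was listed. The 3 p3/p5 strands of 20 nt had 10 against 13 reads and a log2 ratio of -0.43, whose interval from -1.78 to 0.87 included 0, with 1 of the 3 above 0. Lower sums were not limited to short sequences. The candidates of 23 nt had 15 against 61 reads, those of 24 nt 452 against 496, and those of 25 nt 460 against 388. The p3/p5 strands of 21 nt had a log2 ratio of -0.53 in sum, and of 0.69 without their most abundant sequence. The share of short fragments in the libraries as a whole was not analysed here, and its part in this pattern was not tested. The 6 short candidates were all unnamed, and of the 11 unnamed candidates of 21 or 22 nt 10 were above 0 with scaling by clean reads and 7 with the summed listed reads.

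**Figure D3:**
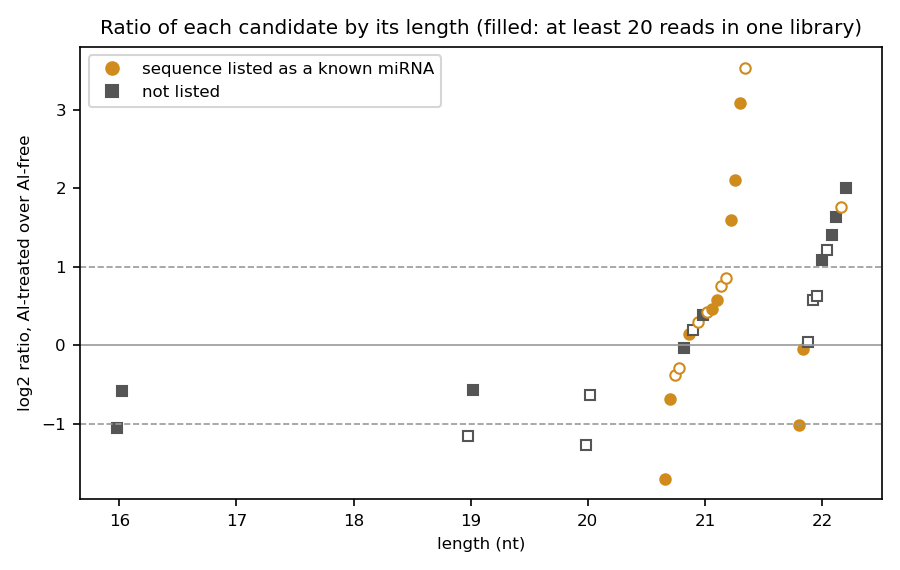
Log2 ratio, Al-treated over Al-free, of each of the 35 candidates against its length in nt, with points of 1 length spread sideways in the order of their values. Circles also carry a PN name, squares are unnamed, filled points had at least 20 reads in one library, and dashed lines mark 1 and -1. All 6 points at 16, 19 and 20 nt lie below 0.

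The shortest candidates are shown because their length is unlike that of a Dicer product. Capitals mark a closing CCA, the bases that also close mature tRNAs, a feature noticed after the sequences were seen.
PC-60-3p: tttcccggcaatggaaCCA
PC-9-5p: ttccccacagacggcgCCA
Both 19-nt candidates ended in CCA and were among 6 of all 217 listed sequences that did, with, for example, PN-miR160b and PN-miR160c. The 16-nt candidates were PC-46-5p and PC-34-5p (gCTGGTTTgcccgaga), which differed in composition, with 25.0% and 62.5% G and C. From which transcripts these fragments came was not tested.

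Partner strands under the same PC number were rare. Only 8 of the 35 candidates belonged to a pair in which both the 5p and the 3p strand of a PC number were listed, making 4 pairs, and for 27 no partner was listed under their PC number. Partners listed under the name of a known miRNA were not sought. The pairs fell into 2 kinds. In PC-3 and PC-6 most reads were on the 3p strand: PC-3-5p had 11 reads against 194 of PC-3-3p in the Al-treated library and 13 against 377 in the Al-free library, so that the 5p share was 5.37% (interval from 2.71 to 9.40) and 3.33% (1.79 to 5.63). PC-6a/b-5p had 18 reads against 355 in the Al-treated library and 13 against 113 in the Al-free library, 4.83% (2.88 to 7.52) and 10.3% (5.61 to 17.0).

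In PC-2 and PC-5 neither strand was rare. PC-2-5p had 15 reads against 14 of PC-2-3p in the Al-treated library and 8 against 11 in the Al-free library. Its 5p share was 51.7% (interval from 32.5 to 70.6) and 42.1% (20.3 to 66.5). PC-5-5p had 33 reads against 17 of PC-5-3p in the Al-treated library and 12 against 11 in the Al-free library. Its 5p share was 66.0% (51.2 to 78.8) and 52.2% (30.6 to 73.2), so the 5p strand was the more abundant in the Al-treated library. A difference in strand share between the libraries was tested in the 4 pairs with Fisher's exact test. The smallest p was that of PC-6 (exact p = 0.0334, adjusted over the 4 pairs 0.134), where the 3p strand had a log2 ratio of 1.60 and the 5p strand had one of 0.42 (interval from -0.69 to 1.57). The other 3 pairs had exact p of 0.273 and above.

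**Figure D4:**
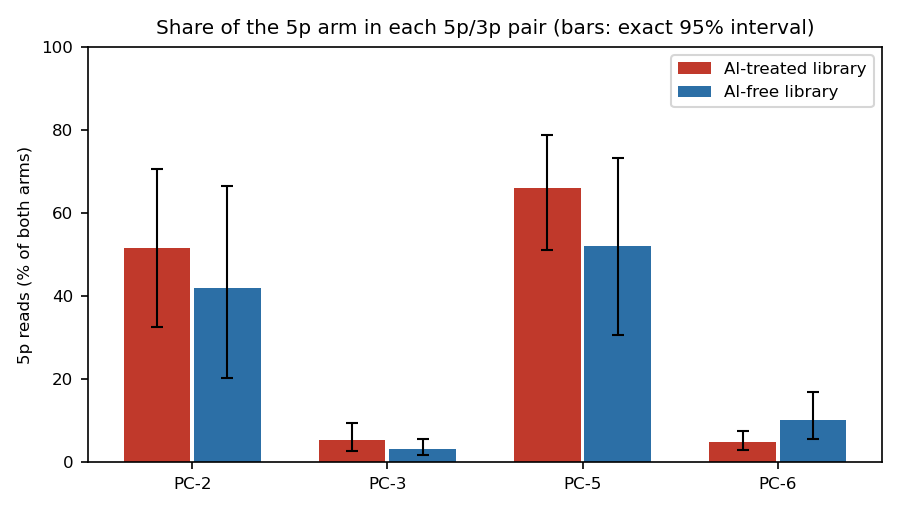
Share of the 5p strand in the reads of both strands, in percent, for the 4 candidate pairs with both strands listed, in the Al-treated library (left bar, red) and the Al-free library (right bar, blue). Error bars are exact 95% intervals. The 5p share lies near 5% or 10% in PC-3 and PC-6 and between 42.1% and 66.0% in PC-2 and PC-5, and the intervals of the libraries overlap in each pair.

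Folding the strands of each pair together in silico gave 17 base pairs for PC-2, 18 for PC-3 and 17 for PC-6. The 3′ ends of the 5p and 3p strands stood out by 2 and 1 bases in PC-3 and by 1 and 1 in PC-6. In PC-2 the values were -2 and -1, so both 3′ ends were recessed. No pair had an overhang of 2 bases at both ends. Precursors were not used, and unrelated strands were not folded for comparison. The pair PC-5 gave 6 base pairs. Its strands instead overlapped, since the last 13 bases of PC-5-5p were the first 13 of PC-5-3p, shown here in capitals.
PC-5-5p: gcatattagCAATGATGATCTG
PC-5-3p: CAATGATGATCTGatagttttt
The longest run shared by the strands in the other pairs was 4 bases. PC-5-5p, one of the candidates that rose, is thus listed with a partner that is not complementary to it, and PC-5-3p had 17 reads in the Al-treated library and 11 in the Al-free library (log2 ratio 0.58, interval from -0.60 to 1.82).

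The degradome lists, which name genes whose cleaved ends matched a miRNA site, hold 11 genes for 4 candidates, PC-2-5p, PC-13-3p, PC-46-5p and PC-68a-5p, all of them within the group. The 31 other candidates have no listed target, and among them are PC-6a/b-3p, PC-3-3p, PC-60-3p and PC-48-3p, the most abundant ones. Of the 11 genes, 9 are listed for the Al-treated library and 7 for the Al-free library, with 5 in both, 4 only in the Al-treated and 2 only in the Al-free library. Over all miRNAs 78 genes are listed, 70 and 41, with 33 in both, so that the share found in both was 45.5% for the candidates and 42.3% for all. The lists carry no values, and a gene absent from one of them may only lack reads there.

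The genes of 2 candidates were those known for their families. PC-2-5p, the miR169 sequence, has Glyma08g45030 and Glyma18g07890 in both libraries, both CCAAT-binding transcription factors, and each is listed for PN-miR169 as well. PC-13-3p has Glyma20g02820 in both libraries, annotated as translation initiation factor 2C, an older name of the Argonaute proteins. This gene is thus listed in the Al-free library, where PC-13-3p had 5 reads, as well as in the Al-treated library, where it had 44.

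PC-46-5p, of 16 nt, has the most genes, 5 in all. Glyma13g03270 and Glyma14g23650, coding for TPR repeat-containing proteins, are listed in both libraries. Glyma03g33240 and Glyma19g35960, cation transporting ATPases that move ions across membranes, are listed only for the Al-treated library, where PC-46-5p had 26 reads against 52 in the Al-free library. Glyma05g23260, a protein tyrosine kinase, is listed only for the Al-free library. The deposited lists hold no cleavage sites, so near copies cannot be told apart in them.

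PC-68a-5p, whose sequence had 12 reads in the Al-treated library and 1 in the Al-free library, has no gene in both. Glyma02g36170 and Glyma10g08730, with a domain of unknown function (DUF588), are listed for the Al-treated library, and Glyma10g38150, a putative steroid membrane receptor, for the Al-free library. The main miR172 strand regulates AP2-like transcription factors, and none of these 3 genes is annotated as such. None of the 11 identifiers matched the reference gene table of *Glycine soja*, so positions of the genes are not given here.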

How the data were processed

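The deposited lists give raw counts of reads for each miRNA. Before deposit the authors discarded reads lacking the adaptor, short reads and junk, then reads found in Rfam, in repeats or in *Glycine max* mRNA. Known miRNAs came from miRBase 18.0 (up to 2 mismatches), and ACGT101-miR 4.2 predicted the candidates. The deposited degradome lists, made by the authors with CleaveLand 3.0 and ACGT301-DGE 1.0, pair names with gene identifiers and hold no other values. Gene families are those of the published target tables.

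Names with a footnote letter were read without it. Reads were scaled by the clean reads of each library that the study gives, since the lists hold only part of a library. Binomial and Fisher's tests were exact and two-sided, intervals were those of Clopper and Pearson at 95%, and p-values were adjusted after Benjamini and Hochberg, with SciPy 1.17.1 in Python 3.11.15. Likeness was sought without gaps, with shifts of up to 3 bases and an overlap of at least 16. Strands were folded together with RNAduplex of ViennaRNA 2.7.2. PCR copies were not removed, so intervals cover counting error only.

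The text names members with at least 20 reads in a library, both strands of a pair, the 5 most abundant in each library, those under 19 nt, those like a known miRNA and those with targets; the other members are summarised or named with their length class or reads, after their values were seen. Members and lists were chosen with earlier results of these data known. On 50 simulated data sets of the 217 sequences, with 40 of them changed 4-fold, 97.5% of the changed sequences with enough reads were called, and 4.18% of calls were unchanged sequences. The simulated counts held counting error only, with a known scaling. These shares therefore check the computation and give no error rate for the calls made here. Alternatives were other scalings (TMM from edgeR 4.0.16 among them), read minimums, a pseudocount, Fisher's exact test, counting by name and other length limits. No genome was used here, and coordinates are not given.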

Additional observations from a re-analysis of the deposited data

How the results depend on the processing

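Against scaling by clean reads, other scalings shifted every log2 ratio by 0.05 (no scaling), -0.09 (listed reads without gso-miR2218), -0.11 (the factors of the study), -0.27 (TMM), -0.30 (median of ratios) or -0.50 (summed listed reads). The log2 ratio of the group's summed reads was then -0.038 with the factors of the study, -0.20 with TMM, -0.23 with the median of ratios and -0.43 with the summed listed reads, so its direction depends on the scaling. It was 0.23 for members of at most 21 nt, 0.31 without PC-3-3p, and, in alternatives chosen after seeing the data, 0.23 for the named and -0.14 for the unnamed candidates.

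The number of candidates past the fold threshold and lower, 3 in the main setting, was 6 with the summed listed reads and 5 with each looser read minimum (10 reads, 20 over both libraries, or none). Shares over all listed sequences were not taken under the alternatives, so no change in a count is read as particular to the group. With 20 reads asked of both libraries, 11 candidates were tested and 1 was past the threshold and higher, and 1 had an adjusted p under 0.05 and was higher. With at most 21 nt both of these counts were 3. Unnamed candidates made up 4 of those past the threshold and higher and 1 of those lower, with 3 and 2 by adjusted exact p. Named candidates made up 3 higher by fold, and 3 higher and 3 lower by adjusted exact p. Of the values of single candidates under alternatives, 204 were counted as keeping direction and side of the adjusted p threshold. For the pseudocount only the direction was compared, because no test was run. PC-55-3p without scaling, with a log2 ratio of 0, was counted among the 204. Direction turned in 6, none of them called: PC-16-5p (0.14) was -0.36 with the summed listed reads, -0.16 with the median of ratios and -0.13 with TMM, PC-57-3p (0.38) was -0.12 and PC-62-3p (0.46) was -0.034 with the summed listed reads, and PC-48-3p (-0.03) was 0.021 without scaling. The 2-fold line was crossed in 9 by 6 candidates, PC-17-3p in 4 of them and PC-3-3p, PC-5-5p, PC-23-5p, PC-34-5p and PC-60-3p in 1 each. The calls of PC-5-5p and PC-23-5p were lost in 5 of the values, and PC-14-5p, PC-34-5p and PC-48-3p gained a call in 5. No paired analysis was possible because each condition had 1 library, and leaving out a replicate was not possible for the same reason.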
